A study of Oryza sativa with 9 samples.

Results

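The genes described here are 9 loci of rice flavonoid and sakuranetin synthesis, chosen by locus number: chalcone synthase (CHS1, LOC_Os11g32650), chalcone isomerase (CHI, LOC_Os03g60509), flavanone 3-hydroxylase (F3H, LOC_Os04g56700), flavonoid 3'-hydroxylase (F3'H, LOC_Os10g17260), dihydroflavonol 4-reductase (DFR, LOC_Os01g44260), anthocyanidin synthase (ANS, LOC_Os01g27490), the cytochromes P450 CYP93G1 (LOC_Os04g01140) and CYP93G2 (LOC_Os06g01250), and naringenin O-methyltransferase (NOMT, LOC_Os12g13800). They are 9 of the 34119 genes in the deposited table, and all 9 are listed there. The table holds FPKM values, read counts scaled to gene length and library size, for polyadenylated RNA of rice seedlings. The 708OE_PEG group had 3 libraries from 14-day-old seedlings of SDG708-YFP-1, an SDG708 overexpression line in which this SET-domain protein carries a yellow fluorescent protein. The NIP_PEG group had 3 libraries from wild-type seedlings of the same age. Both genotypes had 10 h of light and 14 h of dark. Both were kept for 3 h in 20% PEG8000, a polyethylene glycol solution that withdraws water from roots. No untreated plants enter, so the values compare genotypes under dehydration and not responses to it. The overexpression group is a single line, so the transgene and any other difference of that line cannot be told apart. Each wild-type repeat was sequenced on 2 lanes and each overexpression repeat is a single sample, so that difference and genotype cannot be told apart either.

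Flavonoids are built from a CoA ester of a phenylpropanoid acid and malonyl-CoA, which chalcone synthase joins into a chalcone and chalcone isomerase closes into the flavanone naringenin. From naringenin the rice pathway divides: CYP93G1 makes flavones, CYP93G2 opens the route to C-glycosyl flavones, flavanone 3-hydroxylase leads towards flavonols and anthocyanins, and naringenin O-methyltransferase makes sakuranetin. Flavones and their glycosides are the common flavonoids of rice leaves and absorb ultraviolet light. Sakuranetin is an antimicrobial phytoalexin that rice leaves accumulate after infection, jasmonate treatment or ultraviolet light.

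The library sizes implied by the FPKM values were 13.3, 13.6 and 18.1 M reads in 708OE_PEG and 17.4, 24.9 and 20.0 M reads in NIP_PEG. As a check of the labels, LOC_Os04g34976, whose number neighbours LOC_Os04g34980, the locus taken for SDG708, averaged 149.9 ± 3.70 FPKM in 708OE_PEG and 5.15 ± 0.665 FPKM in NIP_PEG (SD, n = 3 each). The other neighbouring number, LOC_Os04g34984, averaged 5.03 ± 0.568 FPKM in 708OE_PEG and 6.04 ± 0.862 FPKM in NIP_PEG (SD, n = 3 each), with overlapping libraries and no call (limma adjusted p = 0.15). LOC_Os04g34980 itself was not analysed here, so its own level gives no check of the labels. Loci listed as markers of green shoots differed between the genotypes, with all 4 higher in every 708OE_PEG library than in any NIP_PEG library and a summed level of 6969 to 7376 FPKM in 708OE_PEG and 3659 to 4784 FPKM in NIP_PEG. Of 5 loci listed as root markers 2 were at 0 throughout, and the 5 summed to 2.61 to 3.14 FPKM in 708OE_PEG and 2.50 to 3.55 FPKM in NIP_PEG, so the libraries labelled seedling held little signal of these root genes. The part of the shoot difference in the values below was not tested, and in such bulk RNA fewer cells of a type and less RNA per cell cannot be told apart. No label says that repeats were grown separately, so the p-values rest on a spread among libraries that may be technical only.

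Under PEG, the overexpression line had higher transcript levels of chalcone isomerase, CYP93G2 and naringenin O-methyltransferase than the wild type. The CYP93G2 call was lost without 708OE_PEG replicate 3. Chalcone synthase did not pass the test. Flavonoid 3'-hydroxylase was lower, a call lost in 9 of 18 alternatives. NOMT, the sakuranetin gene, was at 1.16 ± 0.115 FPKM in 708OE_PEG and 0.0930 ± 0.0347 FPKM in NIP_PEG (SD, n = 3 each). F3H, too low for the main test, averaged 0.593 ± 0.152 FPKM in 708OE_PEG and 0.0579 ± 0.0439 FPKM in NIP_PEG (SD, n = 3 each). DFR and ANS, the late anthocyanin genes, were at 0 or at a trace in both genotypes.

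Of the 9 genes, 6 reached the level needed for testing, 1 FPKM or more in 3 or more of the 6 libraries. Of these, 3 were higher and 1 lower in 708OE_PEG, and 2 did not pass (limma on log2(FPKM + 1), Benjamini-Hochberg adjusted p below 0.05). Over all 18569 genes tested, 14.3% were higher and 20.0% lower. NOMT reached the level through its 708OE_PEG libraries alone, so its place among the tested genes already depends on the difference. Its entry in the counts and the median given here is therefore no independent support. The split between higher and lower calls over all genes moved with scaling: higher calls made up 41.7% of all calls here, 54.6% with FPKM scaled to the same sum and 64.0% with libraries scaled by their counted reads. The 3 libraries of 708OE_PEG lay above all 3 of NIP_PEG for 5 of the 6 tested genes and below them for 1, against 20.0% and 30.7% of all genes tested. The median log2 fold change of the 6 was 0.37, and that of all genes tested was -0.04. In a fit of genes with a mean FPKM of at least 5, which left NOMT out, 2 of 4 were higher and 0 lower. Over all genes of that fit 15.9% were higher and 31.2% lower.

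**Figure D1:**
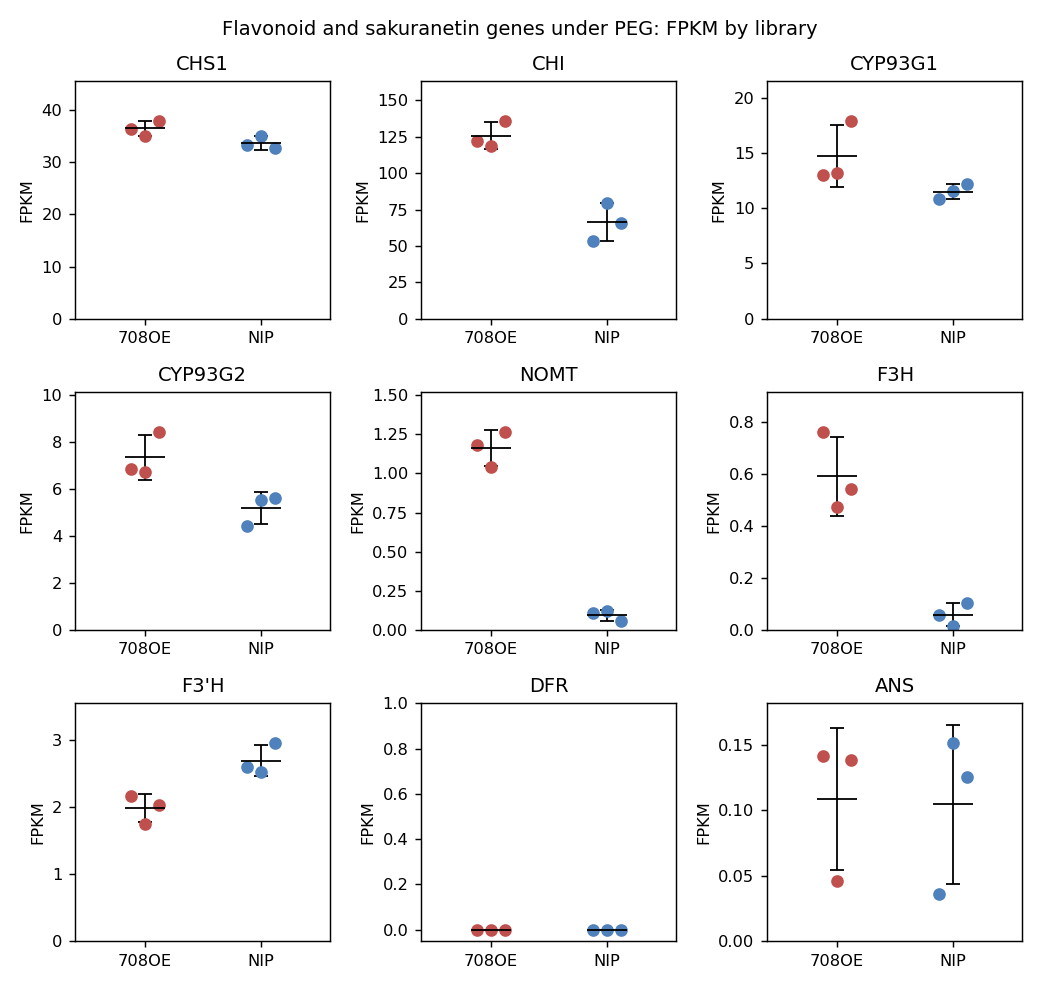
FPKM (y axis, linear, from 0) of the 9 genes in each library, with 708OE_PEG (708OE, red) beside NIP_PEG (NIP, blue); points are libraries, horizontal bars the means and whiskers the SD of 3 libraries. CHI, NOMT and F3H lie well apart between the genotypes, CHS1 differs by a small step, DFR is at 0 in all 6 libraries and ANS overlaps.

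Chalcone synthase, the entry enzyme, had 36.4, 35.2 and 38.0 FPKM in 708OE_PEG replicates 1, 2 and 3, against 33.4, 35.1 and 32.7 FPKM in NIP_PEG. The groups just failed to overlap, with 708OE_PEG replicate 2 and NIP_PEG replicate 2 almost level. The difference did not pass, with a log2 fold change of 0.11 (95% confidence interval -0.03 to 0.26, limma adjusted p = 0.2). It passed once libraries were scaled by their counted reads, at 0.22 (limma adjusted p = 0.042).

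Chalcone isomerase, which closes the chalcone ring to give naringenin, had 122.4, 118.7 and 136.1 FPKM in 708OE_PEG and 53.4, 79.7 and 65.7 FPKM in NIP_PEG. Every overexpression library was above every wild-type library, and the wild-type libraries were the more spread. The mean was 126 ± 9.16 FPKM in 708OE_PEG and 66.3 ± 13.1 FPKM in NIP_PEG (SD, n = 3 each), a ratio of 1.90. On the log2 scale the change was 0.93 (SE 0.13, limma adjusted p = 0.0018), and 356 of the 18569 genes tested had a larger one. The call held under all 19 alternatives run, with adjusted p between 5.25e-05 and 0.0118.

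CHI and CHS1 can be set against each other within each library. FPKM of CHI over FPKM of CHS1 was 3.36, 3.38 and 3.58 in 708OE_PEG and 1.60, 2.27 and 2.01 in NIP_PEG. The groups did not overlap, and the difference in this ratio was 0.83 on the log2 scale (exact two-sided permutation test, p = 0.1, the smallest that 3 libraries against 3 allow). Levels of different genes are compared here per kilobase of the length the authors used. That length matched the RefSeq gene span, introns included, to within 2% for 8 of 10 loci that could be compared, CHS1 and CHI among them, with 4CL5 and LOC_Os07g11440 as the exceptions, so genes with long introns read low beside genes with short ones.

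CYP93G1, the flavone synthase, was the highest of the 4 genes among the 9 that are taken here as branches at naringenin. This ranking leaves out LOC_Os10g39140 and LOC_Os04g49210, listed as further F3H loci under names not found in RefSeq. LOC_Os10g39140 averaged 15.2 ± 0.665 FPKM in 708OE_PEG and 10.7 ± 0.295 FPKM in NIP_PEG (SD, n = 3 each). LOC_Os04g49210 averaged 8.27 ± 0.361 FPKM in 708OE_PEG and 6.10 ± 0.318 FPKM in NIP_PEG (SD, n = 3 each). CYP93G1 had 13.0, 13.2 and 17.9 FPKM in 708OE_PEG and 10.8, 11.6 and 12.2 FPKM in NIP_PEG. The groups did not overlap, and 708OE_PEG replicate 3 stood above the rest. The log2 fold change of 0.32 (95% confidence interval 0.04 to 0.59) did not pass (limma adjusted p = 0.071). It was 0.17 without 708OE_PEG replicate 3 (limma adjusted p = 0.17), and it passed on whole reads with voom (0.39, adjusted p = 0.033), after quantile normalization (0.37, adjusted p = 0.048) and with libraries scaled by their counted reads (0.42, adjusted p = 0.038).

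CYP93G2, the flavanone 2-hydroxylase at the start of the C-glycosyl flavone route, had 6.86, 6.74 and 8.43 FPKM in 708OE_PEG and 4.42, 5.54 and 5.63 FPKM in NIP_PEG. Again all overexpression libraries were above all wild-type ones and replicate 3 was the highest. Its log2 fold change was 0.43 (SE 0.11, limma adjusted p = 0.019). Without 708OE_PEG replicate 3 it was 0.34 and missed the threshold (limma adjusted p = 0.071).

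NOMT, which methylates naringenin to sakuranetin, had 1.18, 1.04 and 1.27 FPKM in 708OE_PEG and 0.108, 0.118 and 0.0533 FPKM in NIP_PEG. These values stand for 59, 53 and 86 reads in 708OE_PEG and 7, 11 and 4 reads in NIP_PEG, so the wild-type level is close to the limit of detection and the overexpression level is low but counted in every library. On the log2(FPKM + 1) scale, which compresses low genes, the log2 fold change was 0.98 (SE 0.09, limma adjusted p = 0.00022), and 306 of 18569 genes tested had a larger one. The size of this value depends on the pseudocount, at 2.72 with 0.1 and 0.28 with 5, and the call held with both. The reads gave 198 in 708OE_PEG and 22 in NIP_PEG over all libraries, a ratio per library size of 12.4 with an exact 95% interval of 7.99 to 20.3 that covers counting error only. With voom on the reads the log2 fold change was 3.66 (SE 0.34, adjusted p = 2.6e-05). This fit and the main one tested NOMT only because of its 708OE_PEG libraries. The rank and the adjusted p-values of NOMT in them are therefore no independent support.

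F3H, the entry to flavonols and anthocyanins, had 0.764, 0.473 and 0.541 FPKM in 708OE_PEG and 0.0585, 0.0136 and 0.101 FPKM in NIP_PEG. These are 30, 19 and 29 reads in 708OE_PEG and 3, 1 and 6 reads in NIP_PEG. All overexpression libraries were above all wild-type libraries, and the level stayed under 1 FPKM in each. Over all libraries there were 78 reads in 708OE_PEG and 10 in NIP_PEG, a ratio per library size of 10.8 with an exact 95% interval of 5.56 to 23.4, again for counting error only. In a voom fit of all 25882 genes with at least 10 reads in all, chosen after the data were seen, F3H was higher by 3.59 on the log2 scale (SE 0.61, adjusted p = 0.00087), where 13.4% of genes were called higher. That fit tested 8 of the 9 genes and called 5 higher, CYP93G1 joining CHI, CYP93G2, NOMT and F3H, while F3'H was no longer called.

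**Figure D2:**
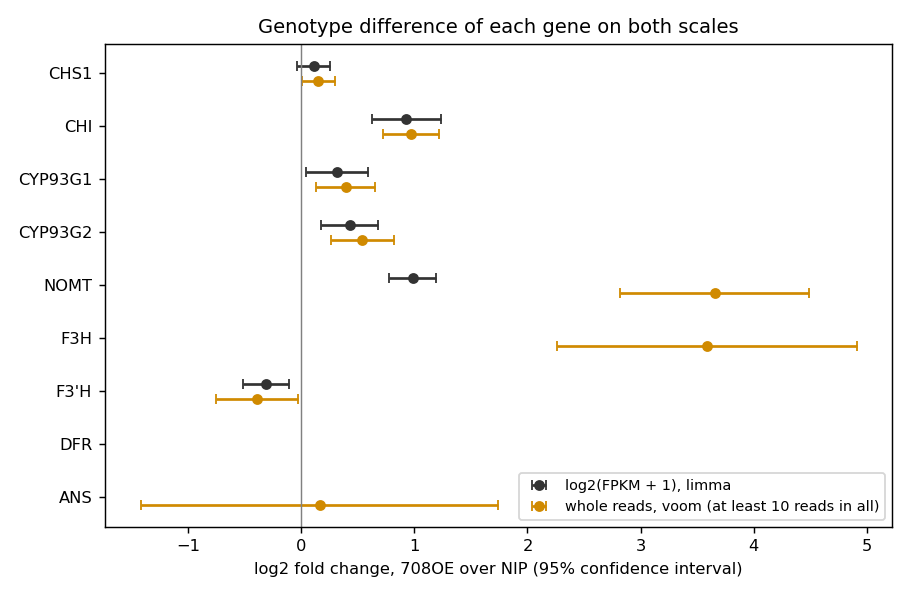
Log2 fold change of 708OE_PEG over NIP_PEG (x axis) with its 95% confidence interval for each gene (y axis), on log2(FPKM + 1) with limma (black) and on whole reads with voom for genes with at least 10 reads in all (orange). NOMT is at 0.98 on the first scale and 3.66 on the second, F3H and ANS have only the second, DFR has neither, and the other genes differ little between scales.

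F3'H, which adds a hydroxyl to the flavonoid B ring, was the only one of the 6 tested genes called lower. It had 2.17, 1.75 and 2.04 FPKM in 708OE_PEG and 2.60, 2.52 and 2.96 FPKM in NIP_PEG, with no overlap. The log2 fold change was -0.31 (SE 0.09, limma adjusted p = 0.03). This call was lost in 9 of 18 alternatives, with adjusted p up to 0.11. Among them were the fits without NIP_PEG replicate 3 (-0.26, limma adjusted p = 0.1) and without 708OE_PEG replicate 2 (-0.25, adjusted p = 0.1) or 3 (-0.32, adjusted p = 0.074). LOC_Os10g16974, listed as the P450 CYP75B4 under a name not found in RefSeq, went the other way. It averaged 5.24 ± 0.343 FPKM in 708OE_PEG and 4.08 ± 0.281 FPKM in NIP_PEG (SD, n = 3 each). Its log2 fold change was 0.29 (limma adjusted p = 0.021), a call lost without 708OE_PEG replicate 1 or 3 (adjusted p = 0.054 and 0.085).

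The late anthocyanin genes gave almost no signal in either genotype. ANS, which makes the coloured anthocyanidin, had 3, 1 and 4 reads in 708OE_PEG and 1, 6 and 4 reads in NIP_PEG, or 0.142, 0.0461 and 0.138 FPKM in 708OE_PEG and 0.0362, 0.151 and 0.125 FPKM in NIP_PEG. The groups overlapped, and the ratio of reads per library size was 1.01 with an exact 95% interval of 0.351 to 2.74, and no difference was detectable at this depth. DFR, the enzyme before it, was listed at 0 in all 6 libraries. A count of 0 allows up to 3 reads per library, which as reads scaled to library size (RPM) is 0.226, 0.221 and 0.165 in 708OE_PEG and 0.173, 0.121 and 0.150 in NIP_PEG.

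CYP93G1, CYP93G2, NOMT and F3H, the 4 genes taken here as branches at naringenin, were also read as shares of their summed FPKM. F3'H was not placed among them and is not in this sum. LOC_Os10g39140 and LOC_Os04g49210, listed as further F3H loci, are not in this sum, so the F3H share is that of LOC_Os04g56700 alone. NOMT took 5.42%, 4.85% and 4.49% in 708OE_PEG and 0.700%, 0.685% and 0.297% in NIP_PEG. F3H took 3.50%, 2.20% and 1.92% in 708OE_PEG and 0.380%, 0.0789% and 0.565% in NIP_PEG. For both genes every overexpression library was above every wild-type library. CYP93G1 took 59.7%, 61.6% and 63.7% in 708OE_PEG and 70.2%, 67.1% and 67.8% in NIP_PEG, which put its share below the wild type in each library although its FPKM was above. CYP93G2 averaged 30.9% ± 0.856 in 708OE_PEG and 30.7% ± 1.80 in NIP_PEG (SD, n = 3 each), with overlapping libraries. The differences were 4.36 percentage points for NOMT, 2.20 for F3H and -6.75 for CYP93G1, each with p = 0.1, and 0.19 for CYP93G2 with p = 0.8 (exact two-sided permutation tests). Adjusted over the 4 genes these exact p-values were 0.13, 0.13, 0.13 and 0.8, and 3 libraries against 3 cannot reach 0.05. The 4 shares make up the whole in each library, so rises of some force falls of others. These 4 tests are therefore not separate results. As shares of whole reads the CYP93G2 difference was -1.25 points.

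**Figure D3:**
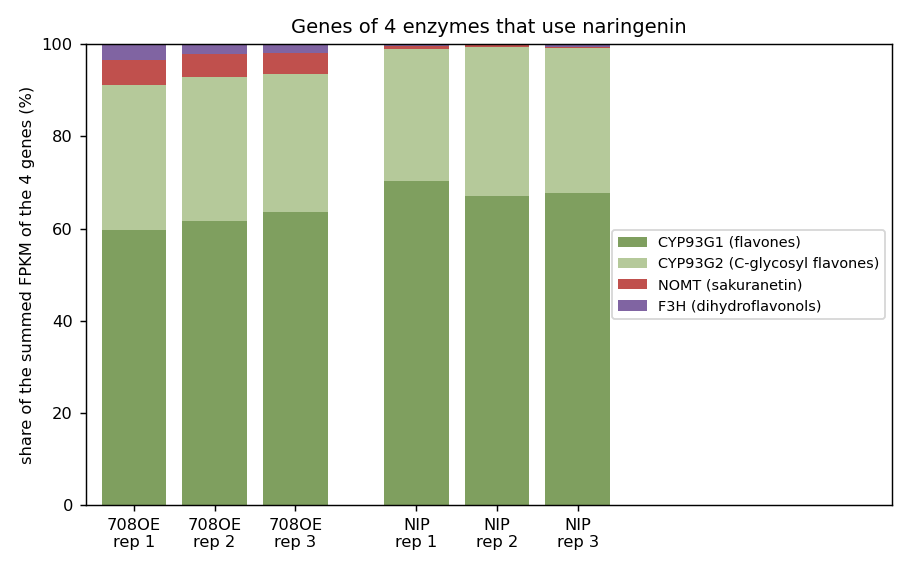
Share (y axis, percent) of each of CYP93G1, CYP93G2, NOMT and F3H in their summed FPKM, 1 bar per library, with the 708OE_PEG libraries (708OE) left of the NIP_PEG libraries (NIP). NOMT and F3H together are thin top segments on the wild-type bars and thicker ones on the overexpression bars, where NOMT is between 4.49% and 5.42%.

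By level per kilobase the order in 708OE_PEG was CHI, CHS1, CYP93G1, CYP93G2, F3'H, NOMT, F3H, ANS and DFR, and neighbours in this order did not overlap in their 3 libraries. In NIP_PEG the first 5 had the same order without overlap. Below them ANS at 0.104 ± 0.0604 FPKM, NOMT at 0.0930 ± 0.0347 FPKM and F3H at 0.0579 ± 0.0439 FPKM (SD, n = 3 each) overlapped and could not be ordered.

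Other genes around the pathway came from lists of locus numbers drawn up from general knowledge. Earlier results of these data were known at that point, so counts from these lists are not independent support. Of 11 loci listed as other flavonoid enzymes 9 were tested, of which 6 were higher in 708OE_PEG, none lower and 3 did not pass, against 14.3% higher and 20.0% lower over all genes tested. The median log2 fold change of the 9 was 0.38, and that of all genes tested was -0.04. Apart from the listed F3H and CYP75B4 names given above, only names found in RefSeq on the same chromosome are used for these loci. The largest change among those named was that of LOC_Os11g02440, at 20.4 ± 1.20 FPKM in 708OE_PEG and 11.1 ± 0.659 FPKM in NIP_PEG (SD, n = 3 each; a log2 difference of 0.82, limma adjusted p = 2.0e-04). LOC_Os10g39140 stood at 0.46 on the log2 scale (limma adjusted p = 0.0015), LOC_Os04g49210 at 0.38 (adjusted p = 0.0047) and LOC_Os02g52840 at 0.45 (adjusted p = 0.032). The last was lost under 9 alternatives, among them without NIP_PEG replicate 1 or 3 (limma adjusted p = 0.061 and 0.065) and without 708OE_PEG replicate 2 or 3 (0.11 and 0.073). Without 708OE_PEG replicate 3 the list had 4 higher genes, and the share called higher over all genes was 9.41%, against 14.3% with all libraries. LOC_Os07g11440 had 0 reads in 708OE_PEG and 1 read in NIP_PEG.

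The 4-coumarate:CoA ligases supply the CoA ester that chalcone synthase uses. Of 5 listed 3 were tested, of which 1 was higher, 1 lower and 1 did not pass, against 14.3% higher and 20.0% lower over all genes tested. With libraries scaled by their counted reads, or once the length trend was removed, 2 of the 3 were higher and 0 lower. Over all genes tested 19.85% were higher and 11.2% lower with the read scaling. With the length trend removed these shares were 15.0% and 14.7%. 4CL5 (LOC_Os08g34790) averaged 4.64 ± 0.531 FPKM in 708OE_PEG and 2.02 ± 0.443 FPKM in NIP_PEG (SD, n = 3 each; a log2 difference of 0.91, limma adjusted p = 0.0013). 4CL4 (LOC_Os06g44620) averaged 16.5 ± 0.747 FPKM in 708OE_PEG and 20.7 ± 1.77 FPKM in NIP_PEG (SD, n = 3 each; a log2 difference of -0.31, limma adjusted p = 0.019). The 4CL4 call was lost, among others, with the trend on gene length removed (-0.18, limma adjusted p = 0.13), with libraries scaled by their counted reads (-0.20, adjusted p = 0.081), without NIP_PEG replicate 3 (adjusted p = 0.076) and without 708OE_PEG replicate 2 or 3 (0.064 and 0.078). 4CL3 (LOC_Os02g08100), the highest of them, averaged 42.4 ± 1.26 FPKM in 708OE_PEG and 38.1 ± 2.26 FPKM in NIP_PEG (SD, n = 3 each; a log2 difference of 0.15, limma adjusted p = 0.12). It passed as higher in 5 alternatives, which were quantile normalization (0.21, limma adjusted p = 0.045), FPKM scaled to the same sum (0.21, adjusted p = 0.0499), the read scaling (0.25, adjusted p = 0.027), voom (0.19, adjusted p = 0.046) and the removed length trend (0.25, adjusted p = 0.028). 4CL2 (LOC_Os02g46970), below the level needed for testing, averaged 0.811 ± 0.293 FPKM in 708OE_PEG and 0.344 ± 0.164 FPKM in NIP_PEG (SD, n = 3 each) and was called higher by voom on genes with 10 or more reads (1.32, adjusted p = 0.02).

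Of 6 loci listed as regulators 4 were in the table and 3 were tested. None of the 3 passed (limma on log2(FPKM + 1)), against 14.3% higher and 20.0% lower over all genes tested. With 3 genes tested this count is not read as a result about regulators. None of the 3 had an unadjusted p below 0.05 either, and voom called none. JAR1 (LOC_Os05g50890), the enzyme that joins jasmonate to isoleucine, stood at 0.15 on the log2 scale (limma adjusted p = 0.17), and at 0.26 with the trend on gene length removed, where it passed (adjusted p = 0.044). The highest of the listed regulators, LOC_Os10g42430, averaged 39.8 ± 2.82 FPKM in 708OE_PEG and 44.6 ± 1.95 FPKM in NIP_PEG (SD, n = 3 each). Its log2 difference was -0.16 (limma adjusted p = 0.12). All its 708OE_PEG libraries lay below all its NIP_PEG libraries, as for 30.7% of all genes tested.

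**Figure D4:**
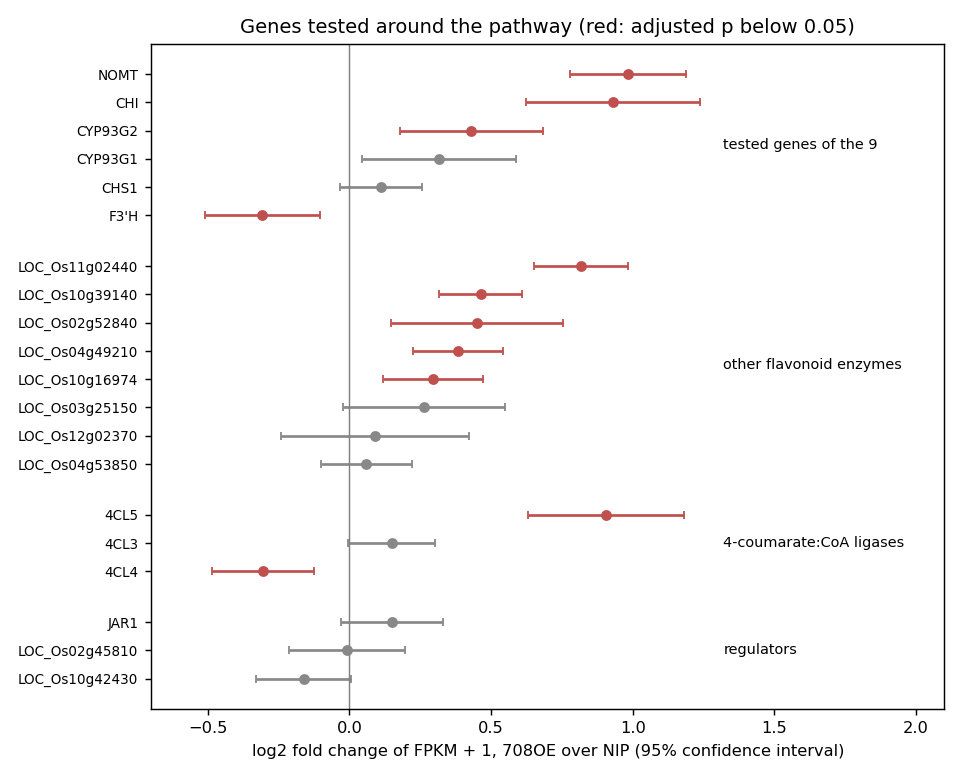
Log2 fold change of FPKM + 1 (x axis, 708OE_PEG over NIP_PEG) with its 95% confidence interval for the 6 tested genes of the 9 (top) and for tested loci of the 3 lists around them, 1 locus left out (y axis); red marks adjusted p below 0.05. NOMT, CHI, 4CL5 and LOC_Os11g02440 lie between 0.82 and 0.98, and F3'H and 4CL4 lie at -0.31.

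Likeness of pattern was measured as the root mean square difference, over the 6 libraries, of log2(FPKM + 1) minus its wild-type mean, against the 20 other tested genes of these lists. LOC_Os11g02440 was nearest to NOMT with a difference of 0.13, and CHI was next with 0.17. This nearness to NOMT depends on the pseudocount of 1: with 0.1 the log2 fold change was 2.72 for NOMT, 0.87 for LOC_Os11g02440 and 0.94 for CHI. Nearest to CHS1 were 4CL3 with 0.054 and LOC_Os04g53850 with 0.075.

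The authors' deposited table gives its own log2 fold change of overexpression over wild type and a p-value, for which no adjustment is stated. In the authors' deposited table NOMT stood at 3.63 (p = 3.69e-21) and F3H at 3.42 (p = 6.36e-09). CHI was at 0.92 (p = 7.95e-13), CYP93G2 at 0.50 (p = 2.05e-05) and CYP93G1 at 0.36 (p = 0.000915) in the authors' deposited table. For F3'H the authors' deposited table lists -0.43 (p = 0.00605) and for CHS1 0.11 (p = 0.0604). ANS is listed there at 0.04 (p = 0.969) and DFR at 0 with a p of 1 in the authors' deposited table.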

How the data were processed

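RNA of 9 samples in 2 groups gave 6 columns, since both lanes of a wild-type repeat share 1 column. The authors deposited FPKM values per library, per the file headers, with the authors' log2 fold change and the authors' p-value. HISAT2, featureCounts, DESeq2, cutadapt, SAMtools, FastQC and deepTools are named, per the submitters' processing notes; their roles and versions, the genome build, the annotation and strandedness were not given in the sources used here. The wild-type columns (NIP2) were assigned to NIP_PEG as a group.

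FPKM values were tested across all genes with limma 3.58.1 (R 4.3.3) on log2(FPKM + 1), with a mean-variance trend, genotype as the single term, genes with FPKM of at least 1 in at least 3 libraries, two-sided, Benjamini-Hochberg adjusted at 0.05. FPKM is built from whole reads, which could be recovered as the smallest whole numbers that fit for 30887 of 31263 genes with any value (98.8%, tolerance 0.02 of a read); library sizes were set so that reads sum close to them. On simulated reads 94.3% of the genes given reads were exact. The implied library sizes were 13.3 to 24.9 M reads, at which 1 read in 1 kb was worth 0.0402 to 0.0752 FPKM. Permutation tests and intervals were computed with scipy 1.17.1.

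The 9 genes and the lists were chosen with earlier results of these data known. Named are all 9 genes and up to 5 called genes a list by size of change. The highest gene of each list and the 2 genes most like NOMT and CHS1 are also named. LOC_Os07g11440, LOC_Os10g16974, JAR1 and 4CL2 were named after their values were seen. As an exception to this rule, the value of 1 listed flavonoid enzyme, counted with its list, is not reported here. RefSeq names (assembly ASM3414082v1) on the same chromosome were found for 2 of the 9 genes; the other 7 names rest on the list that defined them. How reads of near-identical paralogs were assigned is not stated, so such values are uncertain. Same-numbered replicates did not deviate together, so no pairing was used. Overexpression replicates 1 and 2 were the closest pair (1.49 times sampling noise; other pairs 1.96 to 7.60) and were kept apart, with their mean as an alternative.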

Additional observations from a re-analysis of the deposited data

How the results depend on the processing

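CHI and NOMT kept their call in every alternative that tested them, 19 for CHI and 18 for NOMT, which did not reach a mean FPKM of 5. CHS1 passed in 1 alternative, at 0.22 with libraries scaled by their counted reads. CYP93G1 passed in 5: at 0.37 after quantile normalization, 0.42 with that read scaling, 0.39 with voom on whole reads under either filter and 0.32 with the replicate number as a block. CYP93G2 ranged from 0.34 to 0.48 over the fits that leave out 1 library, and its call was lost without 708OE_PEG replicate 3. F3'H lost its call with no filter (-0.31), with FPKM scaled to the same sum (-0.26), with the read scaling (-0.23), with voom (-0.39 under either filter) and with 708OE_PEG replicates 1 and 2 as 1 sample (-0.30), and ranged from -0.35 to -0.25 over the leave-one-out fits. Called genes numbered 6360, against 5619 with the replicate block, 4226 with those replicates as 1 sample and 3708 to 7176 with 1 library left out (4042 without NIP_PEG replicate 3, and 4025, 4070 and 3708 without 708OE_PEG replicate 1, 2 or 3). The replicate block changed no other call of the 6 tested genes; correlations of same-numbered deviations across genes were -0.00504, -0.00218 and -0.0449, so the numbers did not pair the libraries. As shares of whole reads the differences at naringenin were 7.28 points for NOMT, 2.89 for F3H, -8.92 for CYP93G1 and -1.25 for CYP93G2. The read scaling and the voom fit with at least 10 reads were chosen after seeing the data. The cause of a lost call was not tested, also where a fit has fewer samples. Depth limits ANS and DFR, and the wild-type values of NOMT and F3H rest on 22 and 10 reads.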
